A study of Mus musculus with 2 samples.

Results

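The transcripts described here encode chains of the collagens that make up fibrous connective tissue and the organic matrix of bone: *Col1a1* and *Col1a2* (type I), *Col3a1* (type III), *Col5a1* and *Col5a2* (type V), *Col6a1* (type VI), *Col12a1* (type XII) and *Col14a1* (type XIV). They were taken by gene symbol, 8 of the 19430 genes named in the tables, and all 8 passed the filter on rarely detected genes. They were read by Visium spatial transcriptomics, in which probe pairs bound to the RNA of a formalin-fixed section are captured on an array of barcoded spots, each a small region that can hold several cells of different types. Both sections came from 1 paraffin block that held the tibial fracture callus of 1 control and 1 *Nf1*Postn mouse. The control carried 1 floxed and 1 wild-type allele of *Nf1* (*Nf1*+/flox) and no *Postn*-cre. The *Nf1*Postn mouse was *Postn*-cre;*Nf1*flox/-, with 1 germline null allele in every cell and the floxed allele deleted where the periostin promoter drives Cre, a promoter active in the periosteum and, after injury, more widely in the callus. A floxed allele was thus common to both. Both were female littermates aged 8 weeks, and the distal tibia was fractured, stabilized with an intramedullary pin and harvested after 10 days. Both calluses were fixed in formalin for 24 hours and decalcified in 14% EDTA for 3 days. The authors state that decalcification harms RNA quality. The sections are repeated readings of the same 2 calluses, so that genotype and mouse cannot be told apart, no test between genotypes was possible, and the intervals given cover counting error only.

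Type I collagen, built from the chains that *Col1a1* and *Col1a2* encode, is the main fibril of bone, tendon and scar. Type III, a trimer of the *Col3a1* chain, mixes into these fibrils and is known from soft connective tissue and early granulation tissue, and type V, which includes the *Col5a1* and *Col5a2* chains, sits in the core of type I fibrils and starts their assembly. Type VI forms beaded filaments around cells, and types XII and XIV are fibril-associated collagens that lie on the surface of type I fibrils. After fracture, a fibrous tissue rich in types I and III forms first, cartilage with type II collagen bridges the gap, and bone with a type I matrix replaces the cartilage.

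The promoters of the type I, III and V genes are shown because the levels of these genes followed different tissues of the callus. The RefSeq promoter table, made on GRCm38.p6, held *Col1a2*, *Col3a1*, *Col5a1* and *Col6a1*, and each was matched once in GRCm39, the build of the deposited files. The 250 bases before each start were searched on both strands for the CCAAT box, for the core of the TATA box (written as TATAA) and for the GC box (written as GGGCGG), and only the stretch outside annotated exons is printed, 5′ to 3′ on the coding strand, with matches in capitals. These were chr1:45350448-45350697 for *Col3a1* (plus strand, in no annotated exon), chr6:4505370-4505492 for *Col1a2* (plus strand, between annotated exons of its transcripts) and chr2:27776187-27776396 for *Col5a1* (plus strand, upstream of its annotated exons).
Col3a1: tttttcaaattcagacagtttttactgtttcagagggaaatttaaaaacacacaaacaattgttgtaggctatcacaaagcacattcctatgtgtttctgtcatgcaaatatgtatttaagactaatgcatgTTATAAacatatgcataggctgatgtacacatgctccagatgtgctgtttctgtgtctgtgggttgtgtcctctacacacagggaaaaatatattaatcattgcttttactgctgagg
Col1a2: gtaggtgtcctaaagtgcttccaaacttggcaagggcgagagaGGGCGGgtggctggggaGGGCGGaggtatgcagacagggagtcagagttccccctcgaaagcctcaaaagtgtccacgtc
Col5a1: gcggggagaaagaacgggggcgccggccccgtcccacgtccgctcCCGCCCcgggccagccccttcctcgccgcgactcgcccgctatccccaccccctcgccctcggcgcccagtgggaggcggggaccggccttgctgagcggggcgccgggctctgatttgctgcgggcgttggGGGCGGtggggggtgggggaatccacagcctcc
The *Col3a1* window had a G and C content of 35.2% and held TATAA on both strands, overlapping by all but 1 base, 118 and 117 bases before the start. The printed *Col5a1* stretch had a G and C content of 77.6% and held GGGCGG, once on each strand, 205 and 73 bases before the start. The printed *Col1a2* stretch had a G and C content of 59.3% and held GGGCGG 205 and 188 bases before the start, and a CCAAT at 109 bases lay in the exonic remainder of its window. The start meant is that of the RefSeq table. The deposited files place the start of *Col1a2* at 4504814, so that its window lies inside the gene as deposited. The *Col6a1* window lay wholly in annotated exons and held none of the motifs. Among the same windows of all 32841 promoters in the table, the CCAAT box was found in 33.9%, the TATA core in 22.8% and the GC box in 32.7%, so that each of these matches is common.

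In total 6380 spots lay under tissue, of which 5 had no genotype. The control callus had 1700 and 1778 spots in sections 1 and 2, with median depths of 7053 and 5719 unique molecular identifiers (UMIs) per spot, and the *Nf1*Postn callus had 1341 and 1556 spots with medians of 2030 and 3240. The tissue composition of the calluses differed. The summed level of 8 skeletal muscle markers was 11601 and 17202 CPM (counts scaled to the UMI total of that callus and section) in control sections 1 and 2 and 53155 and 94236 in *Nf1*Postn, with all 8 markers higher in both sections and none at 0. The summed level of 9 cartilage markers was 49511 and 31035 CPM in control and 4495 and 8823 in *Nf1*Postn, with all 9 lower in both sections. *Nf1* itself stood at 87.8 and 79.0 CPM in control and 65.6 and 49.6 in *Nf1*Postn, a partial difference in the direction of the labels, and whether its probes lie in the deleted part is not given in the sources used here.

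The 8 collagens supplied 11.3% and 11.7% of all UMIs in the control callus and 8.19% and 5.76% in the *Nf1*Postn callus (sections 1 and 2). Levels were compared for each gene alone, since each was read by its own probe pairs, as CPM over all spots of a callus. *Col1a1* stood at 36328 and 37808 CPM in control and at 23866 and 16880 in *Nf1*Postn. *Col1a2* stood at 60369 and 62073 CPM in control and at 42749 and 30163 in *Nf1*Postn. Both type I chains were thus lower in *Nf1*Postn in each section, and their log2 ratios of *Nf1*Postn to control were -0.61 and -1.16 for *Col1a1* and -0.50 and -1.04 for *Col1a2*. The 2 sections of *Nf1*Postn differed from each other by more than the 2 sections of control did, for these and for every other of the 8 genes.

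*Col3a1* did not share this direction. It stood at 6163 and 7016 CPM in control and at 7536 and 5301 in *Nf1*Postn, so that it was higher in *Nf1*Postn in section 1 (log2 ratio 0.29) and lower in section 2 (-0.40), with a pooled ratio of -0.10 (95% interval -0.11 to -0.09). *Col14a1*, the type XIV chain, stood at 136 and 153 CPM in control and at 136 and 102 in *Nf1*Postn, and its section 1 ratio of -0.01 had an interval that spans 0 (-0.16 to 0.14). *Col12a1*, the type XII chain, stood at 757 and 676 CPM in control and at 462 and 277 in *Nf1*Postn, with log2 ratios of -0.71 and -1.29. Pooled over sections its ratio was -1.06 (-1.12 to -1.01), the farthest from 0 among the 8.

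The type V and VI chains lay between these. *Col5a1* stood at 3428 and 3475 CPM in control and at 2781 and 1689 in *Nf1*Postn (pooled log2 ratio -0.72), and *Col5a2* at 3930 in each control section and at 3172 and 2370 in *Nf1*Postn (pooled -0.56). *Col6a1* stood at 1846 and 1894 CPM in control and at 1220 and 822 in *Nf1*Postn (pooled -0.95). Of the 8 genes, 7 were lower in *Nf1*Postn in both sections and none was higher in both, the exception being *Col3a1*. Over all 16863 genes compared, 30.1% were lower in both sections and 41.6% higher in both, and among the 3290 genes that reached 1000 UMIs per section, as all 8 collagens did, 54.7% were lower in both. The median pooled log2 ratio was -0.77 over the 8 collagens, 0.08 over all genes and -0.21 over those 3290 genes.

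**Figure D1:**
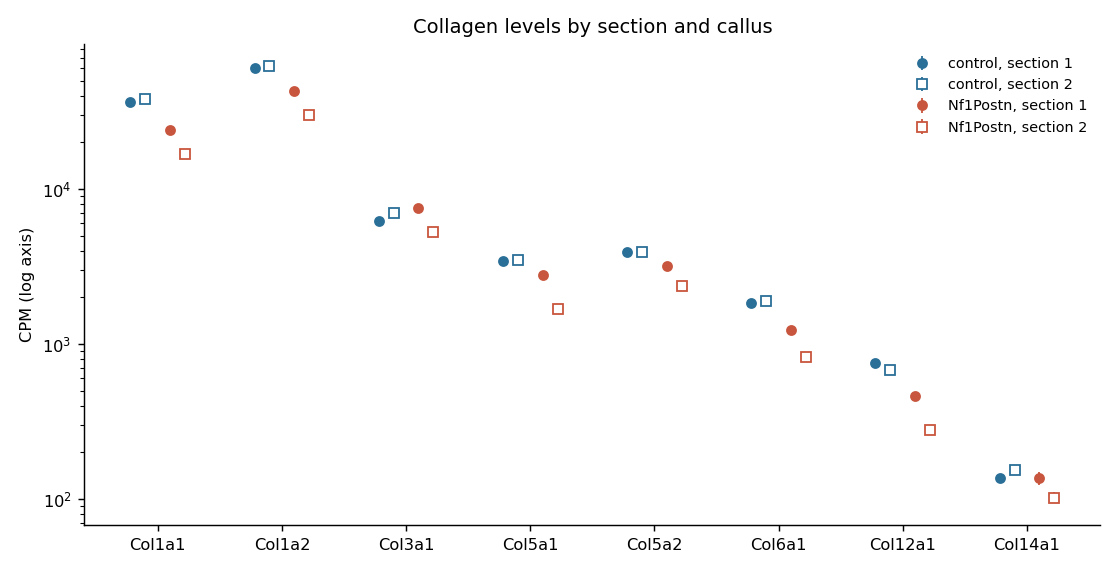
Level of each collagen in the control and *Nf1*Postn callus, in CPM (log axis), with 1 point per section and the exact Poisson 95% interval as a bar, which is mostly smaller than the point. The *Col12a1* points lie at 757 and 676 CPM in control and at 462 and 277 in *Nf1*Postn, whereas the *Col3a1* points of the 2 calluses overlap.

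No member was at least 2-fold lower or higher in both sections, where 1.24% of all genes were 2-fold lower and 11.5% 2-fold higher. Among the genes that reached 1000 UMIs per section these shares were 2.07% and 3.56%. At 1.5-fold, *Col1a1*, *Col6a1* and *Col12a1* were lower in both sections and no member was higher, against 4.87% of all genes lower and 18.9% higher. In section 2 alone, *Col1a1*, *Col1a2*, *Col5a1*, *Col6a1* and *Col12a1* were each past 2-fold lower, with *Col12a1* 2.45-fold lower. The share of all genes 2-fold lower in that section alone was not counted, so that this reading has no background beside it.

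The directions were compared under other scalings. With the 8 collagens left out of the total, with factors from the trimmed mean of M-values (TMM), or with every spot thinned to 1000 UMIs, 7 were lower in both sections and *Col3a1* was again the exception. The TMM factors moved all ratios by -0.28 in section 1, where *Col3a1* then stood at 0.01. In spots with at least 1000 UMIs, *Col14a1* also left the group, at 0.03 in section 1. With the mean over spots of log2(CPM + 1) in place of summed counts, all 8 were lower in both sections, *Col3a1* at -0.68 and -1.07. In that mean a spot without a UMI of a gene counts as 0.

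The share of spots in which a collagen was found was also compared. After thinning each spot to 1000 UMIs, *Col12a1* was found in 43.3% and 44.1% of control spots and in 29.3% and 20.2% of *Nf1*Postn spots (unthinned 85.9% and 84.7%, and 45.6% and 41.9%). *Col14a1* was found in 11.2% and 12.6% of thinned control spots and in 10.1% and 7.4% of thinned *Nf1*Postn spots, and the 95% binomial intervals of the 2 calluses overlap in section 1. *Col3a1*, mixed in level, was found in fewer thinned spots of *Nf1*Postn in both sections, in 93.4% and 86.5% against 96.4% and 97.9% in control. Type I transcripts were so abundant that nearly every thinned spot held *Col1a2* (99.8% or more in both calluses), and such a share could not have shown a difference. All 8 genes were found together in 714 and 752 control spots and in 197 and 174 *Nf1*Postn spots, at the depths given above.

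**Figure D2:**
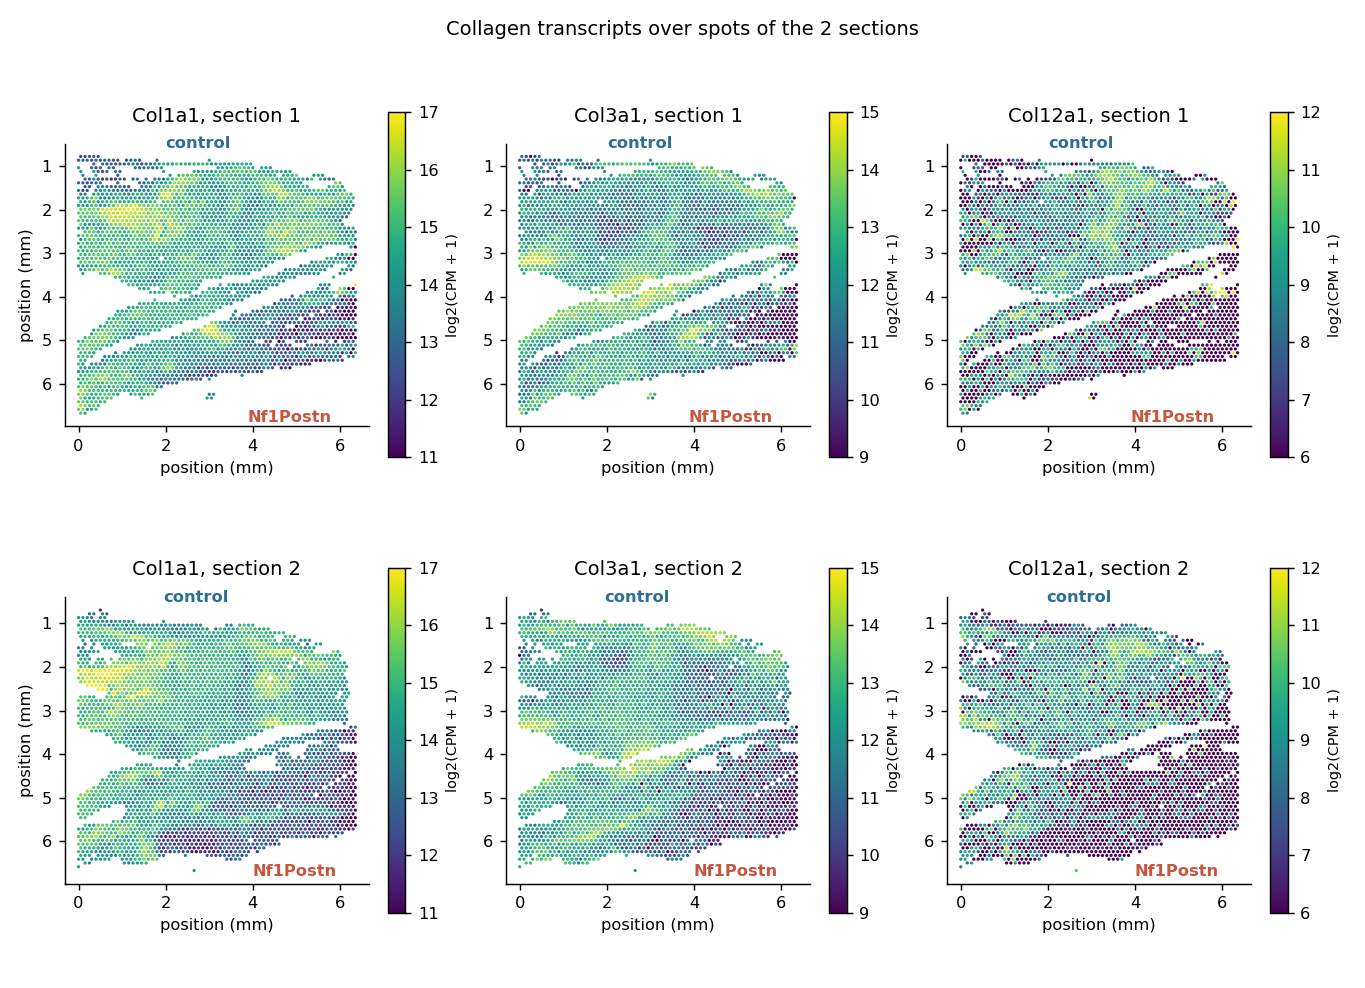
Maps of the spots of each section, coloured by the level of *Col1a1*, *Col3a1* and *Col12a1* as log2(CPM + 1), with both axes giving the position in mm, spots spaced by 100 µm and the control callus above the *Nf1*Postn callus. *Col1a1* covers broad continuous areas of the control callus, while *Col12a1* is patchier and was found in 45.6% and 41.9% of the *Nf1*Postn spots.

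The share of muscle, blood and marrow in the calluses differed along with these ratios. Spots were grouped into 14 regions by clustering without the 8 collagens and without the genes of the collagen network, and 7 of these regions had muscle or blood and marrow markers among their 10 leading genes. They held 18.1% and 17.5% of the control spots and 84.6% and 81.8% of the *Nf1*Postn spots. A single such marker was enough, so these regions were not made up of muscle and blood alone. Region 5, counted by its globin genes, had *Col1a2* at 66308 and 60313 CPM in *Nf1*Postn. Region 14 had a summed cartilage marker level of 33779 CPM. In the remaining spots (1392 and 1467 of control, 206 and 283 of *Nf1*Postn) the median log2 ratio of the 8 collagens was 0.04 in section 1 and -0.17 in section 2.

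Outside the muscle and blood regions, *Col3a1* stood at 6279 and 7033 CPM in control and at 10436 and 9529 in *Nf1*Postn, so that all readings of *Nf1*Postn were above those of control (log2 ratios 0.73 and 0.44). *Col14a1* stood at 138 and 149 CPM in control and at 190 and 213 in *Nf1*Postn there (0.45 and 0.52). *Col5a2* was higher by 0.10 and 0.06. *Col1a1*, at 38043 and 40053 CPM in control and 35711 and 32854 in *Nf1*Postn, remained lower in both sections (-0.09 and -0.29). *Col1a2* and *Col6a1* were also lower in both, while *Col5a1* was mixed. *Col12a1* stood close to control in section 1, at 802 and 726 CPM in control and 791 and 643 in *Nf1*Postn (-0.02 and -0.18). The direction of *Col3a1* and *Col14a1* over the whole callus thus depended on which spots were counted. The remaining spots also differed in makeup. Region 2, described below as lowest for both genes in control over both sections together, held 438 and 287 of the control spots and 9 and 10 of *Nf1*Postn. Within regions the median log2 ratio was 0.20 for *Col3a1* and -0.21 for *Col14a1*. As a spot pools cells, fewer cells of a type and less RNA per cell cannot be told apart in any of these values.

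The control callus, where 10 regions had at least 20 spots in each section, showed where each collagen was high. Type I was highest in region 2, led by *Acp5*, *Siglec15*, *Ocstamp* and *Mmp9*, genes of bone-resorbing osteoclasts. The osteocyte marker *Dmp1* and the osteoblast marker *Bglap* were also among the 10 leading genes of that region. *Col1a1* stood there at 50143 and 58334 CPM, above every other region in both sections, and *Col1a2* at 92594 and 105607. The next region for both was region 6, led by *Bglap*, which encodes osteocalcin of bone matrix, with *Magi2*, *Mmp3* and *Mepe*, and its *Col1a2* level of 93206 CPM in section 1 (38 spots) lay above the region 2 level in that section. Over both sections together type I was lowest in region 9, led by the muscle genes *Tnnt2*, *Myh8*, *Myh3* and *Myl4* of immature fibres, at a pooled 21499 CPM for *Col1a1*, 2.48-fold below region 2. In section 1, however, *Col1a1* was lower in region 7, at 22610 CPM against 23485 in region 9.

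*Col3a1* had another order. It was highest in region 10, led by *Cfd*, *Cadm4*, *Cxcl14* and *Myoc*, at 9969 and 10765 CPM, and in region 3, led by *Gpnmb*, *Fbn2*, *Ccl7* and *Kif26b*, at 10065 and 9753 CPM, and the sections of these 2 regions overlap. It was lowest in region 2, where type I was highest, at 3403 and 3969 CPM. *Col14a1* showed the same pair of high regions, at 264 and 282 CPM in region 10 and 273 and 238 in region 3. Over both sections together it had the same lowest region, at 63.1 and 54.3 CPM in region 2. In section 1 alone, region 8 was lower for *Col14a1*, at 46.7 CPM from 5 UMIs, with overlapping intervals. Both genes thus ranged widely when pooled, 2.84-fold between the highest and lowest region for *Col3a1* and 4.55-fold for *Col14a1*.

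*Col6a1* and *Col12a1* were both highest in region 12, led by the cartilage genes *Ucma*, *Scrg1*, *Cnmd* and *Clec3a*. *Col12a1* stood there at 1370 and 1459 CPM, followed by region 3 at 878 and 696, and was lowest in region 9 at 340 and 263, a range of 4.90-fold. *Col6a1* stood in region 12 at 3031 and 3693 CPM, followed over both sections together by region 3 at 2265 and 2109. In section 2 alone, region 7 stood above region 3 for *Col6a1*, at 2225 CPM. *Col6a1* was lowest in region 4, led by *Hbb-bt*, *Hbb-bs*, *Chrne* and *Retnla*, at 739 and 1017. The other cartilage region, region 7, led by *Col10a1*, *Ihh*, *Snorc* and *Col2a1* of maturing chondrocytes, was far lower for *Col12a1*, at 566 and 595 CPM. *Col12a1* thus differed between the cartilage regions in both sections, although both had high summed cartilage markers.

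The type V chains had the narrowest pooled ranges, an order that did not hold in each section alone. *Col5a1* had its highest pooled level in region 12, at 4283 CPM, which overlapped region 3, and its lowest in region 4, at 1808 CPM. *Col5a2* ranged 1.81-fold, from 2768 CPM in region 9 to 5000 in region 8, led by *Angptl7*, *Cilp2*, *Mepe* and *Myoc*, and 8 of the 9 neighbouring steps in its order overlapped between sections.

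**Figure D3:**
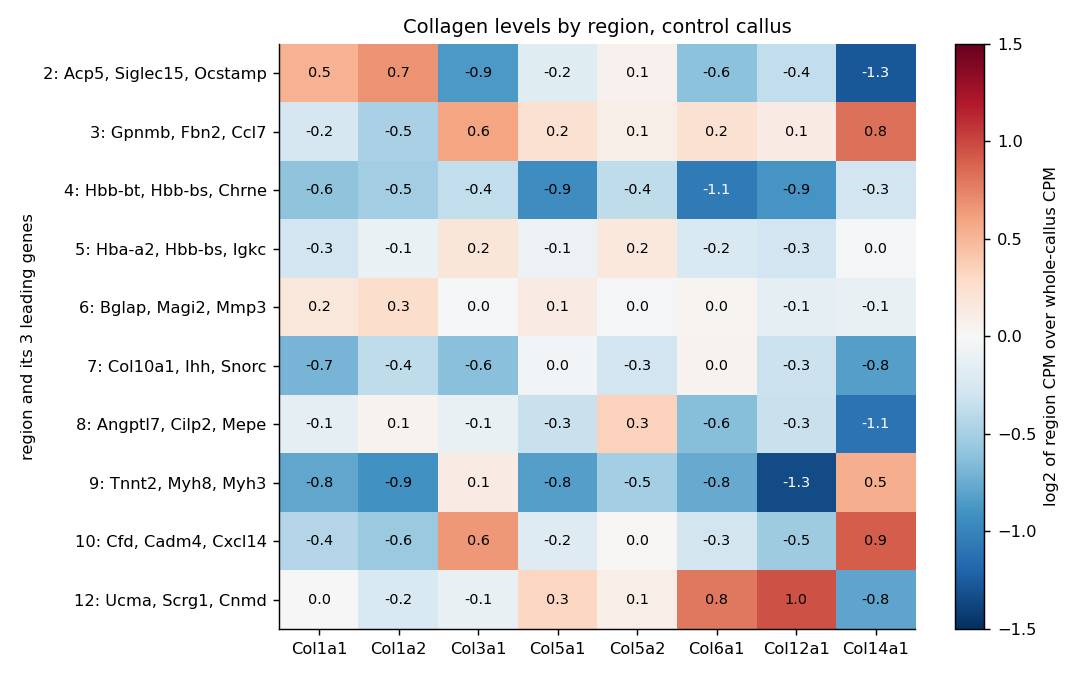
Level of each collagen in the regions of the control callus, as log2 of the pooled CPM of a region over the pooled CPM of the whole control callus, with rows for the 10 regions, named by number and 3 leading genes, and columns for the genes. *Col1a1* and *Col1a2* peak in region 2, where *Col3a1* and *Col14a1* have their lowest values, and *Col6a1* and *Col12a1* peak in region 12.

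In the *Nf1*Postn callus, 9 regions had enough spots, and the pooled levels of all 8 collagens were lowest in region 1, led by the muscle genes *Myh7*, *Ckmt2*, *Dusp13* and *Tuba8*, which held 23.0% of its spots and 3.22% of the control spots. *Col1a1* stood at 5984 and 6174 CPM there, and at 45698 and 43886 in region 6, its highest. In section 1 *Col3a1* and *Col14a1* were as low or lower in region 11, led by *Hbb-bt*, *Hbb-bs*, *Hba-a2* and *Dmtn*, with overlapping intervals. *Col3a1* again peaked in region 10, at 13456 and 13138 CPM, as did *Col14a1*, at 341 and 411. *Col12a1* was high in region 6 (1396 and 755 CPM) and region 3 (1163 and 913), which overlap. Of the bone and cartilage regions of the control callus, region 2 had 9 and 10 spots in *Nf1*Postn, region 12 had 3 and 1 and region 7 had 0 and 26, so that the highest control regions of *Col1a1*, *Col6a1* and *Col12a1* could not be compared between the calluses.

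Genotypes were compared within the 7 regions that had at least 20 spots of each genotype in each section (3, 4, 5, 6, 8, 9 and 10; region 5 was led by *Hba-a2*, *Hbb-bs*, *Igkc* and *Car2*). Of the 56 pairs of collagen and region, 15 were lower in *Nf1*Postn in both sections, 17 higher in both and 24 mixed, with a median log2 ratio of -0.01. Of the 54 pairs with at least 50 UMIs in each section, 14 were lower and 16 higher in both sections, against 29.0% and 27.0% of such pairs over all genes, so that the collagens as a group stood near the background. No pair was 2-fold lower or higher in both sections, where 0.714% and 0.192% of all pairs were.

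The directions differed between single genes, and no share of all genes was counted for such patterns. *Col3a1* was higher in *Nf1*Postn in both sections in 5 of 7 regions and lower in none, with a median log2 ratio of 0.20: in region 10 it stood at 9969 and 10765 CPM in control and at 13456 and 13138 in *Nf1*Postn (0.43 and 0.29), and in region 9 at 6169 and 7541 in control and 8096 and 8235 in *Nf1*Postn (0.39 and 0.13). *Col12a1* was lower in both sections in 4 regions (4, 8, 9 and 10), with ratios of -0.30 and -1.06 in region 10, and higher in both in regions 3 (0.41 and 0.39) and 6 (1.41 and 0.18). Its 95% interval spanned 0 in section 1 of regions 4 and 9 and in section 2 of regions 6 and 8. The *Col12a1* median over regions was -0.55, and -0.22 and -0.047 with coarser and finer clustering (resolutions 0.3 and 1.0). *Col1a1* and *Col1a2* were lower in both sections in regions 4 and 9, and in region 9 *Col1a1* stood at 23485 and 20714 CPM in control and at 12806 and 13810 in *Nf1*Postn. In region 3 both were higher in both sections (*Col1a1* log2 ratios 0.00 and 0.18), and *Col1a2* was so in region 5 too (0.26 and 0.04). *Col5a1* was higher in both sections in 3 regions and lower in none, and *Col6a1* lower in 2 and higher in none. The *Col5a1* intervals spanned 0 in both sections of regions 6 and 9 and in section 2 of region 5. Those of *Col6a1* spanned 0 in section 1 of regions 5 and 8, and those of *Col3a1* in section 1 of regions 3 and 5.

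The muscle marker level differed within some regions too. It was 52934 and 59462 CPM in control and 75342 and 88449 in *Nf1*Postn in region 9, and 5136 and 12106 against 8372 and 14716 in region 10. Its part in the within-region ratios was not tested. Region 6 had 38 control spots in section 1 against 393 in section 2, so that its pooled ratios weigh the control sections unequally.

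**Figure D4:**
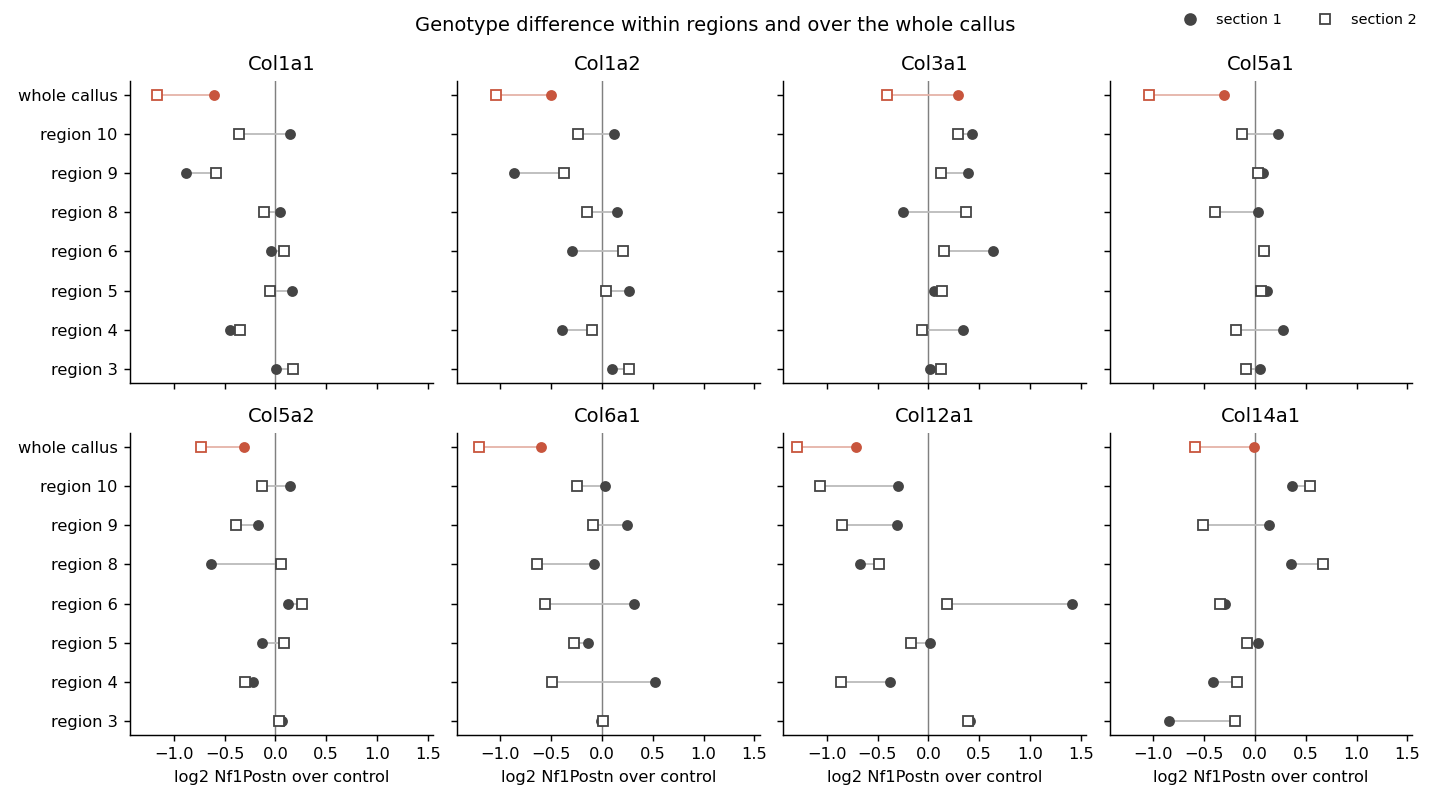
Log2 ratio of *Nf1*Postn to control for each collagen within each of the 7 regions, and over the whole callus (top row), with filled circles for section 1, open squares for section 2, a line joining them and a vertical line at 0 for no difference. *Col3a1* lies above 0 in both sections in 5 regions, while *Col12a1* lies below 0 in both sections in regions 4, 8, 9 and 10 and above it in regions 3 and 6. Intervals are not drawn, and those of *Col12a1* span 0 in section 1 of regions 4 and 9 and section 2 of regions 6 and 8.

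The makeup of the collagens, which does not depend on the other genes in a spot, differed between the calluses in *Col3a1*. Its share of the UMIs of all 8 collagens was 5.46% and 6.0% in control and 9.20% in each section of *Nf1*Postn. Per 100 UMIs of *Col1a1* there were 17.0 and 18.6 of *Col3a1* in control and 31.6 and 31.4 in *Nf1*Postn. Both *Nf1*Postn readings thus lay above both control readings, and the 2 sections of each callus were closer to each other than to the other callus. Without the muscle and blood regions the pooled values were 17.0 in control and 29.1 in *Nf1*Postn, though the makeup of those spots still differed, as given above. In spots with at least 1000 UMIs they were 17.7 and 31.6.

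Within regions the difference in makeup was not uniform. *Col3a1* per 100 *Col1a1* was higher in *Nf1*Postn in both sections in 4 of 7 regions and lower in both in none, with a median log2 ratio of 0.30. It was 26.3 and 36.4 in control and 63.2 and 59.6 in *Nf1*Postn in region 9, and 38.5 and 36.6 against 47.0 and 57.2 in region 10. In region 3 it was 32.1 and 31.5 in control and 32.4 and 30.4 in *Nf1*Postn, so that the calluses overlapped there. The proportion of the 2 type I chains differed more between regions than between calluses: *Col1a2* per 100 *Col1a1* was 166 and 164 in control and 179 and 179 in *Nf1*Postn, with log2 ratios between calluses from 0.02 to 0.15 over the 7 regions, whereas in control it was 142 and 134 in region 12 and 203 and 212 in region 7. *Col14a1* per 100 *Col12a1* was 18.0 and 22.7 in control and 29.4 and 36.9 in *Nf1*Postn, and it ranged in the control callus from 5.99 in region 12 to 73.9 in region 9. Within regions it was higher in *Nf1*Postn in both sections in 4 and lower in 2, region 3 (31.1 and 34.2 in control, 13.0 and 22.7 in *Nf1*Postn) and region 6.

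Levels were next set against position in the callus. Distance was measured from region 7, which had the highest summed cartilage marker level (153750 CPM, against 128142 in region 12), in the control callus of both sections and in section 2 of *Nf1*Postn, since section 1 of *Nf1*Postn had no spot of it. In control, *Col1a1* stood at 22610 and 23112 CPM inside region 7, at 35478 and 38276 within 300 µm and at 43808 and 41196 between 600 and 1000 µm. *Col12a1* had its highest level in the bin next to region 7: 566 and 595 CPM inside, 965 and 818 within 300 µm, 817 and 720 to 600 µm, 605 and 550 to 1000 µm and 429 and 470 beyond. *Col3a1* was lowest inside (4116 and 4509 CPM) and highest between 600 and 1000 µm (7309 and 8616), and *Col14a1* was 83.3 and 77.9 CPM inside, 192 and 180 between 300 and 600 µm and 159 and 201 between 600 and 1000 µm. In both control sections *Col3a1* was thus higher at each step out to 1000 µm, and *Col12a1* was lower at each step beyond the first 300 µm. The bin within 300 µm was itself rich in cartilage markers, at 65906 and 50752 CPM against 5509 and 3995 beyond 1000 µm.

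In section 2 of *Nf1*Postn the 26 spots of region 7 and their surroundings shared only part of this course. *Col1a1* stood at 29342 CPM inside, 36750 within 300 µm and 26441 between 600 and 1000 µm, whereas in control it was higher in the last of these bins than within 300 µm. *Col12a1* stood at 888 CPM inside, 854 within 300 µm, 492 to 600 µm, 508 to 1000 µm and 129 beyond. Its intervals inside and within 300 µm overlap, so that no peak in the bin next to region 7 was seen. Region 12, highest for *Col12a1* in control, had 1 spot in this section of *Nf1*Postn. The cartilage marker level within 300 µm was 25610 CPM here and 50752 in control section 2. The part of this makeup in the course of *Col12a1* was not tested. *Col3a1* stood at 5451 CPM inside, at 9070 between 600 and 1000 µm and at 3991 beyond, which was its lowest bin, while in control the lowest was inside. *Col3a1* per 100 *Col1a1* was higher at every step, at 18.6 inside, then 22.4, 26.1 and 34.3, and 36.3 beyond 1000 µm. In the control callus, pooled over sections, it was 18.7 inside and 15.5 within 300 µm, then 17.6, 18.9 and 22.1 beyond 1000 µm. Over the same bins it was 18.2, 16.1, 17.5, 16.7 and 17.9 in control section 1 and 19.5, 14.9, 17.6, 20.9 and 27.6 in control section 2. The outermost bin of *Nf1*Postn held 1136 spots with a muscle marker level of 122789 CPM, against 39879 CPM in that of control.

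**Figure D5:**
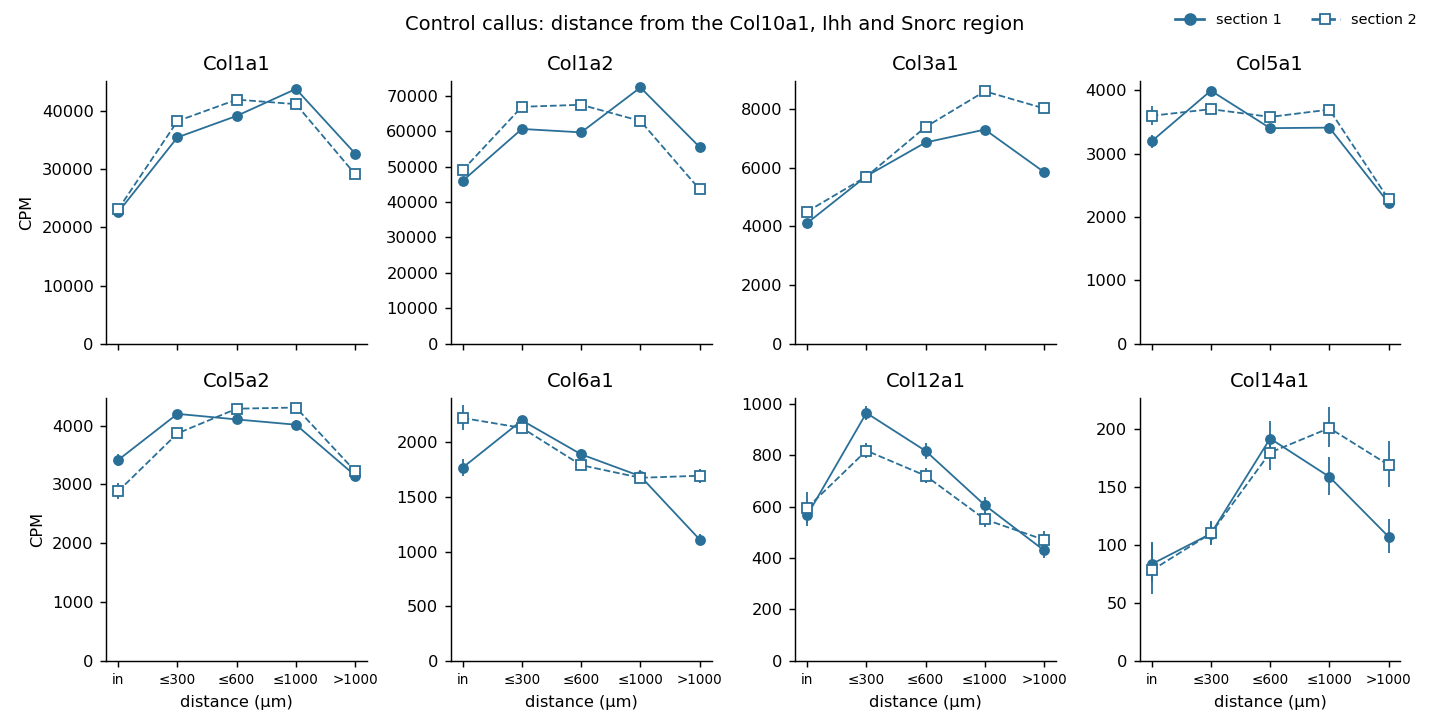
Level of each collagen (CPM) in the control callus by distance from cartilage region 7 (µm, in bins: inside, up to 300, 300 to 600, 600 to 1000 and over 1000), with a solid line for section 1, a dashed line for section 2 and exact Poisson 95% intervals as bars. *Col12a1* is highest within 300 µm in both sections and lower in each bin beyond, and *Col3a1* is lowest inside the region.

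Distance from the tissue edge was measured to the nearest array position not under tissue, which can also be a gap inside a section. In the control callus, *Col3a1* and *Col14a1* were higher up to 100 µm from the edge than deeper than 300 µm. *Col1a1*, *Col1a2*, *Col5a1*, *Col6a1* and *Col12a1* were lower there in both sections, and *Col5a2* was mixed. *Col14a1* stood at 171 and 207 CPM in spots up to 100 µm from the edge, 197 and 194 up to 300 µm and 102 and 112 deeper. *Col3a1* stood at 7342 and 8371 CPM at the edge, at 7804 and 7922 up to 300 µm and at 5197 and 6041 deeper than 300 µm. *Col12a1* ran the other way, from 506 and 425 CPM at the edge to 778 and 783 deep, and *Col1a2* from 36499 and 52511 to 66967 and 62031. In *Nf1*Postn the *Col12a1* levels were 304 and 266 CPM at the edge and 589 and 276 deep, so that the difference between edge and depth was seen in section 1 and not in section 2. The muscle marker level of the control callus was 41190 and 31531 CPM at the edge and 5979 and 12403 deep, and its part in these differences was not tested.

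Among genes whose products build, modify or bind these collagens, levels were compared in the same way. Of 84 such genes, 57 were lower in both sections and 10 higher, with a median pooled log2 ratio of -0.70, and 10 were at least 2-fold lower and 2 at least 2-fold higher in both sections. Over all genes 30.1% were lower in both sections (54.7% of those that reached 1000 UMIs per section) and 1.24% at least 2-fold lower, while 41.6% were higher and 11.5% at least 2-fold higher. Without the muscle and blood regions, 3 of the 84 were 2-fold lower and 3 higher, and the share of all genes in those spots was not counted. Of 22 genes for collagen biosynthesis and processing, 20 were lower in both sections and none higher, including *Serpinh1*, the collagen chaperone of the endoplasmic reticulum, at 4695 and 3801 CPM in control and 1980 and 1403 in *Nf1*Postn. *Plod2*, which hydroxylates lysines of the collagen telopeptides for crosslinking, stood at 244 and 215 CPM in control and 83.2 and 62.0 in *Nf1*Postn. Of 6 crosslinking genes 3 were 2-fold lower, among them the lysyl oxidase genes *Lox*, at 1061 and 921 CPM in control and 391 and 285 in *Nf1*Postn, and *Loxl4* (pooled log2 ratio -1.46).

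The other lists were more mixed. Of 23 other collagen genes, 12 were lower and 5 higher in both sections, with *Col11a1*, a fibrillar chain of cartilage, at 883 and 771 CPM in control and 337 and 237 in *Nf1*Postn, and *Col22a1*, a collagen of tissue junctions, also 2-fold lower (pooled -1.54). *Col28a1*, a collagen known from peripheral nerve, was higher, at 3.32 and 3.63 CPM in control and 14.2 and 12.7 in *Nf1*Postn, and the summed Schwann cell markers were also higher, at 49.5 and 70.9 CPM in control and 215 and 326 in *Nf1*Postn. Of 16 fibril regulators, 11 were lower and 1 higher in both sections: *Comp*, a cartilage and tendon matrix protein that binds collagen, stood at 6477 and 4473 CPM in control and 1513 and 1890 in *Nf1*Postn, and *Tnxb*, a tenascin of loose connective tissue, at 80.8 and 68.9 in control and 174 and 169 in *Nf1*Postn. Of 10 collagen receptor genes, 5 were lower and 2 higher in both sections with none past 2-fold, and of 7 collagen degradation genes, 5 were lower and 1 higher, with *Mmp9*, a gelatinase of osteoclasts and neutrophils, 2-fold lower (pooled -1.69). The markers of cartilage and bone were lower with these lists, the summed osteoblast markers standing at 3794 and 3689 CPM in control and 2022 and 1262 in *Nf1*Postn, and their part in these counts was not tested.

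The genes most like each collagen were taken over 43 units of region, section and genotype with at least 20 spots, by Pearson's r of log2 CPM, a description over units that share libraries and muscle content. *Col1a1* and *Col1a2* had r = 0.97 with each other, and *Sparc*, which encodes a collagen-binding protein of bone matrix, was the most like both (r = 0.98 and 0.95). *Col3a1* was most like *Loxl1*, *Emp1* and *Postn* (0.93, 0.93 and 0.91), *Postn* being the gene whose promoter drives Cre in these mice. *Col6a1* was most like *Col6a2*, which encodes another chain of the same trimer (0.99), and *Col5a1* was most like *Col16a1*, *Cthrc1* and *Col6a3*. *Col12a1* was most like *Gpx3* (0.95), *Col14a1* like the basement membrane genes *Lamb1* and *Nid1* (0.90 and 0.88), and *Col5a2* like *Ppic* and *Calr*. *Col3a1* and *Col14a1* had r = 0.83, against 0.33 for *Col1a2* and *Col14a1*. *Col3a1* and *Col5a2* are also neighbours in the genome, on opposite strands of chromosome 1 with 24614 bases between them.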

How the data were processed

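Visium FFPE data of 2 sections were analysed, each holding the callus of 1 control and 1 *Nf1*Postn mouse. The authors hybridized mouse probe pairs, processed reads with Space Ranger (1.3.0 in the submitters' processing notes) on mm39 and exported tables from Partek Flow. The deposited values are estimated counts, UMIs per gene and spot without normalization, of which 9 genes held values that were not whole. Genotype was taken from the deposited spot annotation. The labels call the sections biological replicates, but both came from 1 block.

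UMIs were summed per section and genotype and divided by their total (CPM), with exact Poisson 95% intervals. Log2 ratios have exact conditional binomial intervals. Genes found in under 0.3% of spots were dropped, leaving 16902. Spots were clustered on log2(CPM + 1), centred per section, without the collagens and network lists (92 genes), by 20 principal components, 15 nearest neighbours and Leiden clustering at resolution 0.5 (leidenalg 0.10.2). TMM factors came from edgeR 4.0.16, used for scaling only. Named genes were the 8 collagens, per network list the 2 with the largest 2-fold difference each way in both sections with at least 50 UMIs per section, the 3 most like each collagen with at least 500 UMIs, and 4 leading genes per region. Distances used array positions spaced 100 µm. Doublets do not apply to spots, and an entry without a gene name (11.6 and 6.8 UMIs) was left out. The code was tested on simulated data.

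The collagens and lists were chosen with earlier results of these data known. The background of genes with 1000 UMIs, the minimum of 50 UMIs for pairs of gene and region, the grouping of muscle and blood regions and the need for 20 spots of the cartilage region in distance profiles were chosen after values were seen.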

Additional observations from a re-analysis of the deposited data

Results flagged for a closer look

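For 5 of the 8 collagens the ratio of *Nf1*Postn to control had opposite signs in different regions, with both sections of one region on one side of 0 and both sections of the other region on the other side. The difference between regions was not tested, and each pair of regions is the most separated one of that gene. The share of all genes with such opposite regions was not counted. Of all pairs of gene and region with at least 50 UMIs in each section, 29% were lower and 27% higher in both sections. The count of 5 is thus not read as particular to the collagens. For *Col1a1* the pooled log2 ratio was 0.11 in region 3 and -0.67 in region 9, a difference of 0.79, and in section 1 of region 3 the levels were 31393 and 31417 CPM, a log2 ratio of 0.00. For *Col1a2* it was 0.21 in region 3 and -0.52 in region 9, a difference of 0.73. For *Col5a2* it was 0.29 in region 6 and -0.33 in region 9, a difference of 0.62, and the region 6 value lies above its section values of 0.13 and 0.26. For *Col12a1* it was 0.66 in region 6 (section 2 interval -0.10 to 0.46) and -0.64 in region 10, a difference of 1.29. For *Col14a1* it was 0.63 in region 8 and -0.44 in region 6, a difference of 1.08. These *Col14a1* ratios rest on few UMIs, 5 and 12 in control and 6 and 22 in *Nf1*Postn in region 8 (sections 1 and 2) and 19 and 259 against 10 and 17 in region 6, and each section's interval spans 0. The pooled *Col14a1* value of region 6 also lies outside its section values of -0.29 and -0.34. In all, *Col14a1* was lower in both sections in 3 regions and higher in both in 2. In region 10, with 179 and 136 UMIs in control and 126 and 153 in *Nf1*Postn, its ratios were 0.37 and 0.54, with both intervals above 0. In region 3 its ratios were -0.85 and -0.20, and the section 2 interval spans 0. The muscle marker level in region 9 was 52934 and 59462 CPM in control and 75342 and 88449 in *Nf1*Postn, and in region 3 it was 4334 and 9435 in control and 16268 and 10694 in *Nf1*Postn.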

How the results depend on the processing

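No paired analysis was possible because no test was made: each section holds both calluses, and ratios were already formed within sections. Taking the mean of the spots' own log2(CPM + 1) values rather than summed counts moved the median log2 ratio of the 8 collagens from -0.77 to -1.63, the number 2-fold lower in both sections from 0 to 5, the median log2 range over control regions from 1.55 to 1.85, the median log2 ratio of levels within 300 µm of the cartilage region to those beyond 1000 µm in control from 0.35 to 0.79 and the median log2 ratio of edge to depth in control from -0.41 to -0.65. In such a mean a spot without a UMI of a gene counts as 0, and *Nf1*Postn spots were shallower (median 2642 UMIs against 6370). The ratio moved most for *Col12a1* (-1.06 to -3.86) and *Col6a1* (-0.95 to -3.21), and from -0.93 to -1.19 for *Col1a1*. With every spot thinned to 1000 UMIs the median ratio was -0.73, and the part of depth was not tested. Leaving out the muscle and blood regions moved the median ratio to -0.078 and the count of 2-fold network genes from 12 (10 lower, 2 higher) to 6 (3 lower, 3 higher), and TMM factors moved that count to 19 (18 lower, 1 higher). At 1.5-fold, 3 collagens were called. Distance from either cartilage region, an alternative chosen after seeing the data, gave 0.45 for the ratio of levels within 300 µm to those beyond 1000 µm. With 1 section left out at a time, the median ratio was from -1.04 to -0.40, the collagens past 2-fold from 0 to 5, the regional range from 1.44 to 1.64, the within-region median from -0.09 to 0.05, the cartilage ratio from 0.27 to 0.36, the edge ratio from -0.49 to -0.19, the *Col3a1* share difference from 3.21 to 3.74 percentage points around 3.49, the 2-fold network genes from 22 (14 lower, 8 higher, section 1 alone) to 33 (31 lower, 2 higher, section 2 alone) and the number of like genes kept, of 24, from 9 to 16. Signs changed in 2 of 54 checks of summary values, both of the within-region median, which lies near 0 (-0.01, against 0.048 in section 1 alone and 0.032 with the mean of spots), and in 22 of 264 checks of single genes. Without the muscle and blood regions the ratio changed sign for *Col3a1* (-0.10 to 0.58), *Col5a2* (-0.56 to 0.079) and *Col14a1* (-0.34 to 0.51), and for *Col3a1* also in section 1 alone (0.29). Within regions the *Col14a1* median was -0.21, from -0.18 to 0.029 with 1 section left out and 0.41 with regions clustered on all genes, and the medians of *Col1a1*, *Col1a2*, *Col5a1*, *Col5a2* and *Col6a1*, all within 0.1 of 0, each changed sign under at least 1 setting. The ratio of levels within 300 µm of the cartilage to those beyond 1000 µm changed sign for *Col3a1* (-0.26 to 0.066 with the mean of spots and 0.11 with either cartilage region) and *Col14a1* (-0.30 to 0.81 and 0.37, and 0.035 in section 1 alone), and the edge ratio of *Col5a2* did so with section 2 alone (0.026) and with bins of 200 µm (0.034). Of the 54 checks 38, and of the 264 checks 195, were counted as unmoved. For levels, ratios and shares this meant a move smaller than the standard deviation over the 2 sections, and for counts an equal count or one within 1.5-fold. That standard deviation comes from the same 2 sections that were left out in turn, so those checks say little about stability. Clustering resolutions of 0.3 and 1.0 moved no summary value by more than its standard deviation over sections, but moved the within-region median of *Col12a1* from -0.55 to -0.22 and -0.047. *Col14a1*, with 4789 UMIs in all, has the least depth.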

Other observations

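Neighbouring spots resembled each other to different degrees in the 8 collagens. Pearson's r of a spot's log level with the mean of its neighbours was 0.85 to 0.95 for *Col1a2* over the 4 combinations of section and callus, 0.62 to 0.77 for *Col3a1*, 0.45 to 0.47 for *Col12a1* and 0.45 to 0.50 for *Col14a1*, over 1326 to 1760 spots each, and sparse counts lower such values. In spots thinned to 1000 UMIs, Spearman's rho of *Col1a1* with *Col1a2* was 0.80 to 0.90 over the same 4 combinations. That of *Col1a2* with *Col3a1* was -0.12 and -0.20 in control sections 1 and 2 and 0.35 and 0.60 in *Nf1*Postn. Such a difference was not confined to this pair. The rho of *Col1a2* with *Col6a1* was -0.04 and -0.07 in control and 0.32 and 0.47 in *Nf1*Postn. For *Col6a1* with *Col12a1* the calluses overlapped, at 0.18 and 0.15 in control and 0.14 and 0.20 in *Nf1*Postn. The spots share a library and these values are descriptions.

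The 5 spots without a genotype held 3497 UMIs together, of which 64 were *Col1a1* (18304 CPM, 95% interval 14096 to 23374) and 23 were *Col3a1* (6578 CPM, 4170 to 9870).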
